A study of Homo sapiens with 6 samples.

Results

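The integrated stress response genes described here are 10 genes of the CHOP and ATF4 pathway, DDIT3, NUPR1, ATF4, ATF3, TRIB3, CHAC1, ASNS, DDIT4, SESN2 and PPP1R15A. They were taken by symbol from a deposited table of 11957 rows, and all 10 had a row. The values that put DDIT3 at their head were its counts in the comparison below, where its groups did not overlap, so member values of that comparison are given as a description. The libraries were made from OVCA433, an established line of human ovarian cancer cells, in a study of U2AF2 deficiency, and fall into 2 groups by genotype label. Of the 6 libraries, 3 are labelled U2AF2 SI and 3 are labelled U2AF2 SINC, called SI-labelled and SINC-labelled below. The labels expand neither abbreviation and name no further treatment, allele or time. They do not tie the replicates to cultures of their own, so a p-value here covers the spread between these libraries alone, which may be technical. Messenger RNA was captured by its poly(A) tail and sequenced with strand marking.

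In the integrated stress response, one of 4 kinases senses a stress such as amino acid shortage, haem shortage, viral RNA or misfolded protein in the endoplasmic reticulum, and phosphorylates the translation initiation factor eIF2. General translation slows, while the mRNA of ATF4, whose upstream reading frames otherwise keep ribosomes from its coding sequence, is translated more. ATF4 protein then binds composite C/EBP-ATF elements and switches on genes of amino acid supply, and, when stress persists, DDIT3, which encodes CHOP, a transcription factor linked to cell death. Because ATF4 is controlled at translation, and eIF2 by phosphorylation, mRNA counts show the mRNA levels of the response and not its protein steps.

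The groups are named for U2AF2, the large subunit of the factor that binds the polypyrimidine tract before the 3′ splice site. U2AF2 had 285, 345 and 373 CPM (counts per 1000000 of TMM-adjusted library size) in SI-labelled libraries, against 252, 284 and 206 CPM in SINC-labelled libraries. The mean was thus higher in SI-labelled libraries (log2 fold change 0.44 ± 0.19 SE, edgeR adjusted p = 0.653), and the labels do not say in which group U2AF2 was to be lowered. Counts were tied to libraries by the column names that the sample descriptions give, whose first letter is N for SI-labelled and S for SINC-labelled libraries. Whether those letters were exchanged was not tested, and an exchange would turn every direction below round. Library totals ran from 43333966 to 48976810 counts. Of 13 markers of epithelial ovarian carcinoma, KRT8, KRT18 and MUC1 had a row, with a summed level of 242 to 410 CPM in SI-labelled libraries and 312 to 455 CPM in SINC-labelled libraries. EPCAM, KRT7, PAX8, MUC16 and the other 6, KRT19 and CDH1 among them, had no row. The lowest row mean of the table was 31.0 counts, and why these markers had no row was not tested. Of the markers of other cell types, 4 of 7 for fibroblasts (65.1 to 83.9 CPM summed in SI-labelled libraries, 48.6 to 70.3 CPM in SINC-labelled libraries), 1 of 6 for leukocytes (CD68, 49.3 to 53.5 CPM in SI-labelled libraries, 48.2 to 56.3 CPM in SINC-labelled libraries) and 0 of 5 for endothelium had a row. Any part of these in the results was not tested.

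The promoters of DDIT3, CHAC1 and ASNS are shown because the levels of DDIT3 did not overlap between the groups, while CHAC1 and ASNS, whose levels overlapped, hold letters of the ATF4 element. Each is the 250 bases before a RefSeq start in GRCh38.p14, read 5′ to 3′ on the gene's strand, with motif matches in capitals.
DDIT3 (chr12:57520515-57520764, minus strand): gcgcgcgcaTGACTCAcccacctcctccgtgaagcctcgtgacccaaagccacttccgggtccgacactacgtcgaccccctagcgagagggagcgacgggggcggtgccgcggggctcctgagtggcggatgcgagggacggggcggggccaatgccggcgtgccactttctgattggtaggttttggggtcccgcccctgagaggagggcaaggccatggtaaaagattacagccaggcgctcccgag
CHAC1 (chr15:40953221-40953470, plus strand): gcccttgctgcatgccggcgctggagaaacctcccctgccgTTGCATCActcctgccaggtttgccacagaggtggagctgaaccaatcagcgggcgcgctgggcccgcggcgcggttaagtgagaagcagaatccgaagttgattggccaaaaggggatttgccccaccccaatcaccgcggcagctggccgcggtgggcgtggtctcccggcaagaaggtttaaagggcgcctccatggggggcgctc
ASNS (chr7:97872409-97872658, minus strand): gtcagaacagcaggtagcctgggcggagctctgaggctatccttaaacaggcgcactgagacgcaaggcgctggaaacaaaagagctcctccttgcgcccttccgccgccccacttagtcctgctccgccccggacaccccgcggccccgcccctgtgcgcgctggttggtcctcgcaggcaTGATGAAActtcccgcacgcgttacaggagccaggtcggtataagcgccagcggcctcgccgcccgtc
In DDIT3 the capitals are a match to the AP-1 motif TGANTCA, 241 to 235 bases before the start. In CHAC1 they are a match, on the opposite strand, to the C/EBP-ATF core TGATGNAA, 209 to 202 bases before the start, and in ASNS a match to the same core on the gene's strand, 68 to 61 bases before it.

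Both strands of these windows were searched for TGATGNAA, TGANTCA, the cyclic AMP response element TGACGTCA and the endoplasmic reticulum stress element, CCAAT followed after 9 bases by CCACG. Of the 10 genes, 9 matched the RefSeq promoter table, all but NUPR1. The C/EBP-ATF core was found before ATF3, CHAC1 and ASNS, 3 of the 9, where 3.89% of all 27305 genes in the table had it in a window of that length. Some genes have more than 1 window, 15 in all for the 9. The AP-1 motif was found before DDIT3 alone of the 9 genes, where 8.06% of all genes had it. The cyclic AMP response element was found before PPP1R15A alone of the 9, where 2.03% of all genes had it, and the endoplasmic reticulum stress element before 0 of the 9, where 0.0916% of all genes had it. No matches overlapped. These are exact letter matches in a short window and not measured binding sites. Near matches and bases further upstream were not searched. The DDIT3 window printed above holds CCAAT followed after 9 bases by CCACT, which differs from the searched letters in the last base alone. A motif not found here may therefore still be present in a promoter.

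DDIT3 was lower in the SI-labelled libraries than in SINC-labelled libraries. It had 1717, 1563 and 1603 counts in SI-labelled libraries, against 2413, 2579 and 2752 counts in SINC-labelled libraries. Scaled, these were 33.4, 31.6 and 37.6 CPM in SI-labelled libraries, against 56.3, 63.7 and 60.1 CPM in SINC-labelled libraries. Every SI-labelled library lay below every SINC-labelled one, and the gap between the groups, 37.6 to 56.3 CPM, was wider than the range within either. The mean was 34.2 ± 3.11 CPM in SI-labelled libraries and 60.1 ± 3.69 CPM in SINC-labelled libraries (SD, n = 3 each), 43.1% lower, a log2 fold change of -0.81 ± 0.17 (SE). With each library left out in turn it lay between -0.89 and -0.75.

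The size of the DDIT3 difference moved with the scaling. With library size alone in place of TMM the log2 fold change was -0.63. The longest coding transcript of DDIT3 has 1067 nt. Once a loess trend of log2 CPM on length and GC content was taken out of each library, the log2 fold change was -0.53 and the groups still did not overlap. In that form the deviations from the 6-library mean were -0.11, -0.39 and -0.28 in SI-labelled libraries and 0.14, 0.18 and 0.46 in SINC-labelled libraries, on the log2 scale. Replicate 1 of the SI-labelled libraries, at -0.44 before, moved closest to the other group. Of the 3558 rows whose mean CPM was within 2-fold of that of DDIT3, 8, itself included, had a log2 fold change as low (TMM), as did 170 of all rows. Nothing is read from this rank, since the same counts put DDIT3 at the head of the genes. The rank was not taken with the length and GC trend removed.

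DDIT3 lies in a crowded stretch of chromosome 12. In GENCODE 29 its gene overlaps MARS1, for methionyl-tRNA synthetase, by 982 bp and MBD6 by 1028 bp, both on the other strand. It also overlaps the gene of the microRNA MIR616 and the protein-coding gene AC022506.1, the latter by 2769 bp. Both lie on its own strand, and neither was analysed here. The sources used here do not say whether counting used the strand. Reads of the overlaps on the same strand may be shared whether or not it did. Those of the overlaps on the other strand may be shared if it did not. MARS1 had 397 ± 38.4 CPM in SI-labelled libraries and 348 ± 2.87 CPM in SINC-labelled libraries (SD, n = 3 each; log2 fold change 0.19 ± 0.17 SE, edgeR adjusted p = 0.784). MBD6 had 11.7 ± 2.00 CPM in SI-labelled libraries and 10.3 ± 3.02 CPM in SINC-labelled libraries (0.18 ± 0.27 SE, adjusted p = 0.876). The MARS1 groups did not overlap, higher in SI-labelled libraries, where 7.36% of all rows did so, and the MBD6 groups overlapped. These values cover whole genes and not the overlaps, and sharing of reads was not tested. Of the other members, ASNS overlaps AC079781.5 on its own strand by 20425 bp and AC005326.1 on the other strand by 123 bp. DDIT4 overlaps DDIT4-AS1 on the other strand by 1066 bp. Sharing of reads was not tested for these either.

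**Figure D1:**
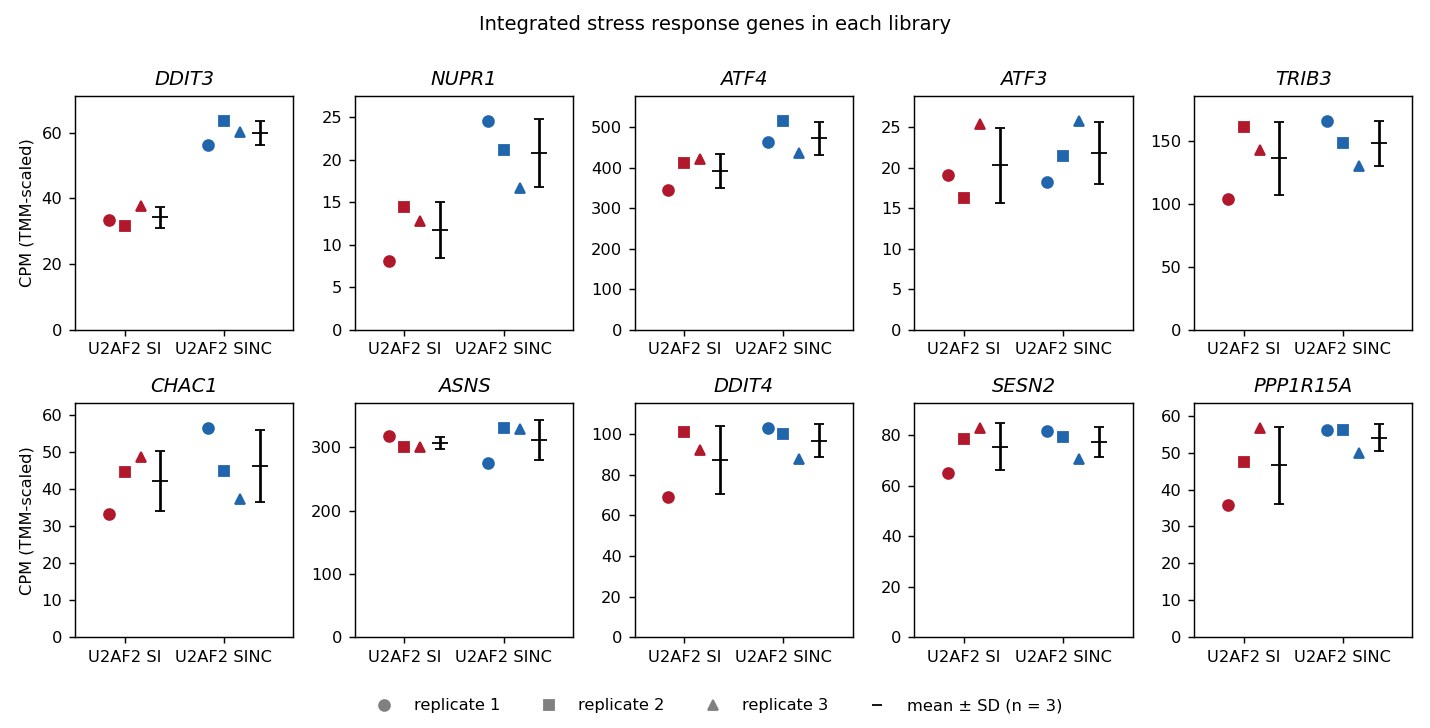
Level of each of the 10 genes in every library, in TMM-scaled CPM on an axis from 0, with SI-labelled libraries on the left and U2AF2 SINC on the right of each panel; symbols mark replicates and bars the mean ± SD (n = 3). DDIT3 lies between 31.6 and 37.6 CPM in SI-labelled libraries and between 56.3 and 63.7 CPM in SINC-labelled libraries, while most other panels overlap.

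NUPR1 encodes a small chromatin-associated stress regulator that is induced downstream of ATF4. It had 415, 713 and 546 counts in SI-labelled libraries, against 1053, 853 and 765 in SINC-labelled libraries. Scaled, these were 8.07, 14.4 and 12.8 CPM in SI-labelled libraries, against 24.6, 21.1 and 16.7 CPM in SINC-labelled libraries. The groups did not overlap, but the spread within them was wide and replicate 1 was at the far end of each, lowest among SI-labelled libraries and highest among SINC-labelled libraries. The mean was 11.8 ± 3.29 CPM in SI-labelled libraries and 20.8 ± 3.94 CPM in SINC-labelled libraries (SD, n = 3 each), a log2 fold change of -0.82 ± 0.27 (SE) that ran from -0.98 to -0.62 as libraries were left out.

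Once the length and GC trend was removed, the NUPR1 difference depended on the transcript length given to the row. The coding transcripts of NUPR1 in GENCODE 29 have 550 and 5491 nt. With the length and GC trend removed at 5491 nt the log2 fold change was -1.04. At 550 nt, a choice made after seeing the data, it was -0.20 and the groups overlapped, with deviations of -0.13, 0.05 and -0.23 in SI-labelled libraries and 0.09, -0.02 and 0.24 in SINC-labelled libraries. The sources used here do not name the transcript that was counted.

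ATF4, the transcription factor at the centre of the response, differed less. It had 344, 412 and 421 CPM in SI-labelled libraries, against 464, 516 and 436 CPM in SINC-labelled libraries. The groups lay side by side without overlap, replicate 3 of each being 421 and 436 CPM. The log2 fold change was -0.27 ± 0.18 (SE). With library size alone in place of TMM it was -0.08 and the groups overlapped, since the counts themselves were 17709, 20398 and 17924 in SI-labelled libraries, against 19889, 20876 and 19955 in SINC-labelled libraries.

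ATF3, a transcription factor of the same bZIP family that both ATF4 and other stress pathways induce, had 19.1, 16.3 and 25.4 CPM in SI-labelled libraries, against 18.2, 21.4 and 25.8 CPM in SINC-labelled libraries. The groups covered nearly the same range, and the log2 fold change was -0.11 ± 0.23 (SE).

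The remaining genes are targets that carry out or end the response. TRIB3 encodes a pseudokinase that binds AKT and damps ATF4 and CHOP activity, and it had 104, 161 and 143 CPM in SI-labelled libraries, against 166, 148 and 130 CPM in SINC-labelled libraries. CHAC1, which degrades glutathione, had 33.2, 44.5 and 48.7 CPM in SI-labelled libraries, against 56.4, 44.9 and 37.2 CPM in SINC-labelled libraries. For both genes the lowest of the 6 libraries was replicate 1 of the SI-labelled libraries and the highest was replicate 1 of the SINC-labelled libraries, while the other 4 libraries were mixed. Their log2 fold changes were -0.12 ± 0.20 (SE) for TRIB3 and -0.13 ± 0.21 (SE) for CHAC1.

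ASNS, asparagine synthetase and the member least variable between the groups, had 318, 301 and 301 CPM in SI-labelled libraries, against 275, 330 and 329 CPM in SINC-labelled libraries (log2 fold change -0.02 ± 0.17 SE). SESN2, a leucine sensor that restrains mTORC1, had 64.9, 78.7 and 82.8 CPM in SI-labelled libraries, against 81.7, 79.5 and 70.5 CPM in SINC-labelled libraries (-0.03 ± 0.17 SE). Both genes lay at about the same level in both groups, with 1 library per gene at the low end. DDIT4, or REDD1, which also restrains mTORC1, had 68.9, 101 and 92.4 CPM in SI-labelled libraries, against 103, 100 and 87.7 CPM in SINC-labelled libraries (-0.15 ± 0.19 SE). PPP1R15A, or GADD34, which brings a phosphatase to eIF2 and so ends the response, had 35.7, 47.4 and 56.6 CPM in SI-labelled libraries, against 56.1, 56.2 and 49.9 CPM in SINC-labelled libraries (-0.22 ± 0.20 SE). In both, replicate 1 of the SI-labelled libraries was the lowest library and the other 5 were close together.

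In edgeR's quasi-likelihood test 0 of the 10 genes passed a Benjamini-Hochberg adjusted p of 0.05 over all rows, where 0.00836% of rows passed. An unadjusted p under 0.05 was reached by 2, DDIT3 and NUPR1, and by 7.37% of rows. limma-voom called 0 of the 10, and DESeq2 0 of the 3 to which it gave an adjusted p (ATF4, TRIB3 and ASNS). The groups did not overlap, lower in SI-labelled libraries, in DDIT3, NUPR1 and ATF4, 3 of 10, where 5.68% of all rows did so. With library size alone 2 of 10, DDIT3 and NUPR1, did so, where 3.16% of all rows did. SESN2 was then higher in SI-labelled libraries without overlap, and the share of all rows that were so was not computed. With the length and GC trend removed 3 of 10, DDIT3, NUPR1 at 5491 nt and ATF4, were lower without overlap, where 6.29% of all rows were. With NUPR1 at 550 nt its groups overlapped. Nothing is read from these shares, since the contrast helped to choose the genes. The median log2 fold change of the 10 was -0.14, against 0.04 for all rows. All 10 lay below 0, and 45.7% of all rows did. With library size alone 4 of 10 did, and the median was 0.04, against 0.22 for all rows. With the length and GC trend removed 9 of 10 did, and the median was -0.11, against -0.01 for all rows.

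**Figure D2:**
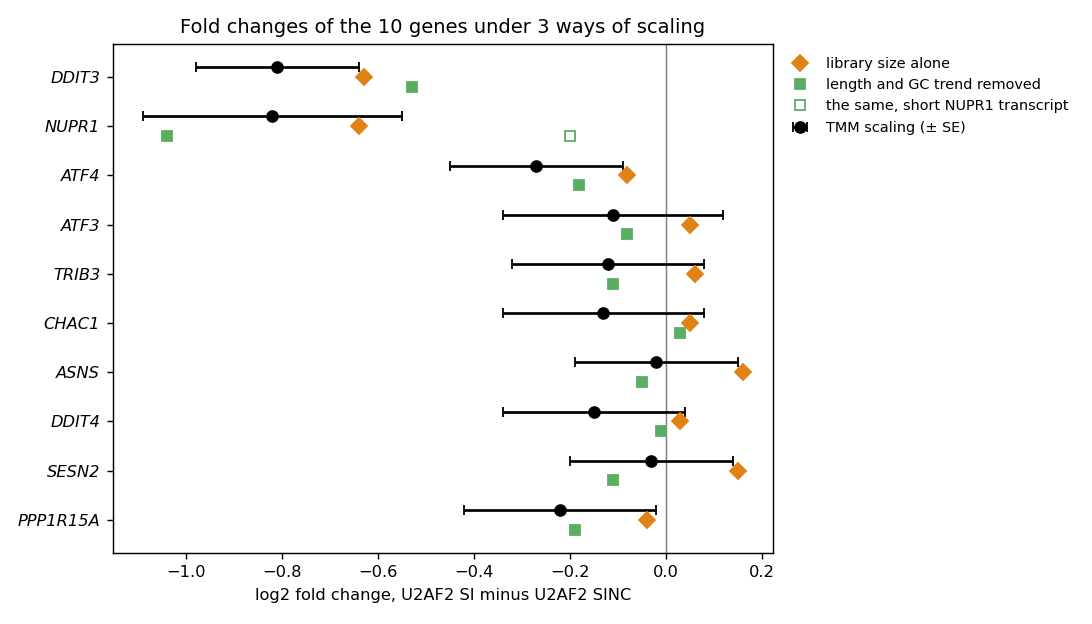
Log2 fold change of each gene, SI-labelled libraries minus SINC-labelled libraries, with TMM scaling (circles, ± SE), with library size alone (diamonds) and with the length and GC trend taken out (squares; open for the 550 nt transcript of NUPR1). DDIT3 is at -0.81, -0.63 and -0.53, and NUPR1 has the widest spread between choices, -1.04 to -0.20.

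The same counts can be set against each other within a library, which takes library scaling out but adds no evidence to the levels above. DDIT3 had 9.70, 7.66 and 8.94 counts per 100 ATF4 counts in SI-labelled libraries, against 12.1, 12.4 and 13.8 in SINC-labelled libraries. NUPR1 had 2.34, 3.50 and 3.05 per 100 ATF4 counts in SI-labelled libraries, against 5.29, 4.09 and 3.83 in SINC-labelled libraries. Neither pair of groups overlapped, and the ratio of the means was 0.687 for DDIT3 and 0.672 for NUPR1. For the other 7 the ratio of means lay between 1.03 for PPP1R15A and 1.19 for ASNS. Of those 7, SESN2 had groups without overlap, at 19.2 ± 0.424 per 100 ATF4 counts in SI-labelled libraries and 16.4 ± 1.10 in SINC-labelled libraries (SD, n = 3 each). ATF4 counts had a lower mean in SI-labelled libraries, which by itself raises these ratios there. The share of all rows without overlap on this ratio was not computed, so nothing is read from the separation of DDIT3, NUPR1 or SESN2 on it. Set against the mean log2 CPM of the 8 genes other than DDIT3 and NUPR1, DDIT3 differed by -0.67 and NUPR1 by -0.70 between the groups. These ratios leave transcript length in: with the length and GC trend removed NUPR1 at 550 nt was at -0.20, beside ATF4 at -0.18 and PPP1R15A at -0.19.

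A single library set much of the pattern of the other genes. Replicate 1 of the SI-labelled libraries was the lowest of the 6 libraries for 7 of the 10 genes, NUPR1, ATF4, TRIB3, CHAC1, DDIT4, SESN2 and PPP1R15A, and for 25.7% of all rows. Its median deviation over the 10 genes was -0.40 on the log2 scale, where the other 5 libraries lay between -0.05 and 0.18. With the length and GC trend removed its median deviation was -0.03, and the other 5 lay between -0.19 and 0.13. Without that library 7 of the 10 log2 fold changes lay below 0 and their median was -0.06, while DDIT3 kept its direction.

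**Figure D3:**
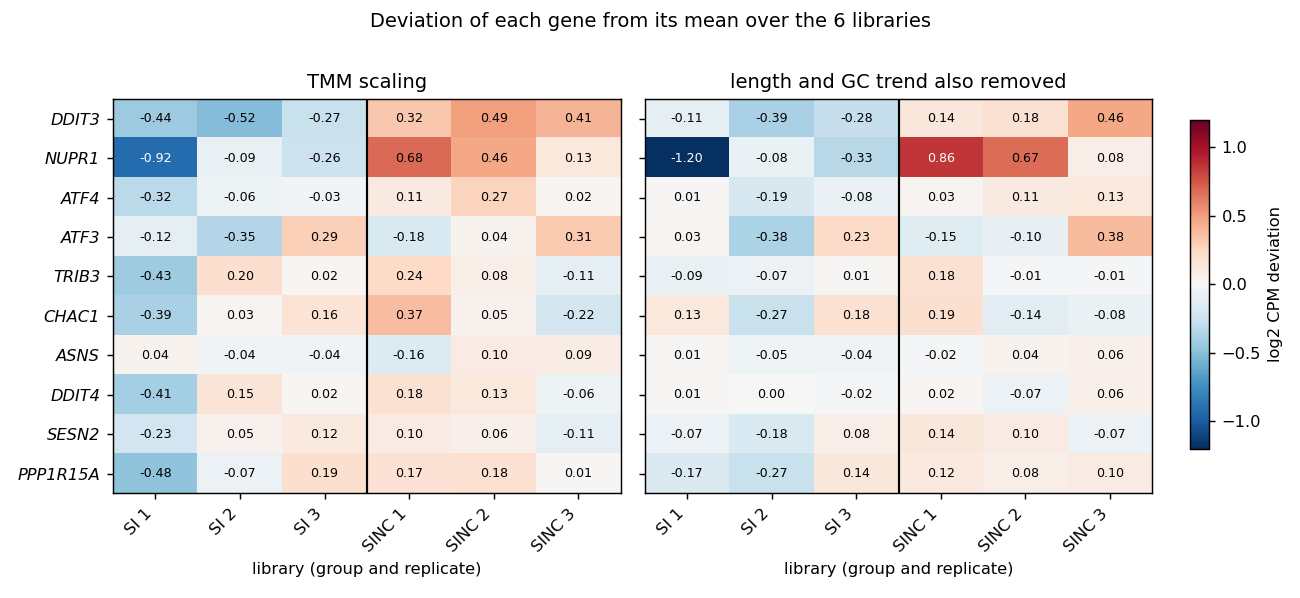
Deviation of each gene from its mean over the 6 libraries, in log2 CPM, with TMM scaling on the left and with the length and GC trend also taken out (NUPR1 at 5491 nt) on the right; columns are libraries by group and replicate. DDIT3 is below its mean in all 3 SI-labelled libraries in both panels, while the low values of TRIB3, CHAC1 and DDIT4 in replicate 1 of the SI-labelled libraries are seen only on the left.

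Levels between genes were compared as CPM per kilobase of the longest coding transcript, averaged over the 6 libraries. ATF4 was highest at 214 ± 28.3 CPM per kilobase, followed by ASNS at 131 ± 8.95 (SD, n = 6 each), and their ranges were apart from each other and from the rest. TRIB3 at 56.8 ± 9.09, DDIT4 at 52.8 ± 7.38 and DDIT3 at 44.2 ± 13.6 came next, each overlapping its neighbour. CHAC1 at 23.9 ± 4.45, SESN2 at 22.1 ± 2.05 and PPP1R15A at 21.2 ± 3.42 could not be ordered beyond their spread, and CHAC1 just reached the range of DDIT3. ATF3 was lower at 10.3 ± 1.92, and NUPR1 was at 2.96 ± 1.08 with its 5491 nt transcript or 29.6 ± 10.8 with its 550 nt transcript. The order of DDIT3 depended on the group, since it was at 32.0 ± 2.92 CPM per kilobase in SI-labelled libraries and 56.3 ± 3.46 in SINC-labelled libraries (SD, n = 3 each). DDIT4 was at 50.1 ± 9.56 in SI-labelled libraries and 55.5 ± 4.73 in SINC-labelled libraries, so DDIT3 lay below it in SI-labelled libraries and beside it in SINC-labelled libraries.

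The rest of the pathway was described from 6 lists of 119 symbols, of which 110 had a row, beside the 10 genes. The symbols were chosen by function, with earlier results of these data known. In edgeR 0 of the 110 passed over all rows, and the smallest adjusted p was 0.653. limma-voom called 0 of the 110, and DESeq2 0 of the 22 to which it gave an adjusted p. An unadjusted p under 0.05 was reached by 5 of the 110, all higher in SI-labelled libraries, and by 7.37% of all rows. Of the 110, 78 had a log2 fold change above 0, where 54.3% of all rows had, and their median was 0.09 against 0.04 for all rows. With the length and GC trend removed the medians were 0.04 for the lists and -0.01 for all rows. The groups did not overlap in 13 that were higher and 3 that were lower in SI-labelled libraries, where 7.36% and 5.68% of all rows did so.

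The upstream list has 21 genes, with a median log2 fold change of 0.05. It holds the eIF2 kinases, the phosphatase subunits, the subunits of eIF2 and its exchange factor eIF2B, and DELE1, OMA1, GCN1, IMPACT and EIF2A. PPP1R15B, the constitutive partner of PPP1R15A at the phosphatase, had 94.0, 52.8 and 53.9 CPM in SI-labelled libraries, against 41.0, 38.5 and 53.8 CPM in SINC-labelled libraries (log2 fold change 0.59 ± 0.25 SE, edgeR adjusted p = 0.653). Replicate 1 of the SI-labelled libraries was the highest, and replicates 2 and 3 lay beside replicate 3 of the SINC-labelled libraries. GCN1, which activates the amino acid sensing kinase on stalled ribosomes, had 299, 325 and 322 CPM in SI-labelled libraries, against 221, 243 and 260 CPM in SINC-labelled libraries, without overlap (0.39 ± 0.17 SE, adjusted p = 0.653). EIF2S3, the gamma subunit of eIF2, was at 329 ± 34.8 CPM in SI-labelled libraries and 261 ± 28.0 CPM in SINC-labelled libraries (SD, n = 3 each; 0.33 ± 0.18 SE, adjusted p = 0.692).

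The list of bZIP partners had 12 of 21 above 0 and a median of 0.05. Its 3 genes of smallest p were FOSL2 at a log2 fold change of 0.32 ± 0.17 (SE), BATF3 at -0.57 ± 0.31 (SE) and MAFG at 0.27 ± 0.18 (SE), with edgeR adjusted p of 0.692, 0.696 and 0.720. All 3 are bZIP proteins that pair with others of the family. With the length and GC trend removed BATF3, whose transcript has 980 nt, was at -0.11.

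Of the 11 measured amino acid transporters 9 had a log2 fold change above 0, where 54.3% of all rows had, and 0 were called. Their median was 0.27, against 0.04 for all rows, or 0.15 against -0.01 with the length and GC trend removed. SLC7A1, a transporter of arginine and lysine, had 47.5, 44.4 and 44.5 CPM in SI-labelled libraries, against 26.1, 29.6 and 33.4 CPM in SINC-labelled libraries. Its groups were well apart, with a log2 fold change of 0.61 ± 0.18 (SE), an edgeR adjusted p of 0.653, and 0.41 with the trend removed. SLC38A1, which carries glutamine, was at 0.53 ± 0.27 (SE), and SLC7A5, which carries leucine, at 0.37 ± 0.20 (SE), with adjusted p of 0.687 and 0.696 and overlapping groups.

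Of the 14 measured genes of amino acid and one-carbon synthesis 11 were above 0, with a median of 0.08, or 0.05 with the trend removed. ALDH18A1, of proline synthesis, had 170 ± 3.54 CPM in SI-labelled libraries and 135 ± 8.45 CPM in SINC-labelled libraries (SD, n = 3 each; log2 fold change 0.33 ± 0.16 SE, edgeR adjusted p = 0.675). PSAT1, of serine synthesis, had 312 ± 21.8 CPM in SI-labelled libraries and 252 ± 22.5 CPM in SINC-labelled libraries (0.31 ± 0.17 SE, adjusted p = 0.696), and neither gene's groups overlapped. CTH, of cysteine synthesis, was at 0.39 ± 0.29 (SE, adjusted p = 0.745) with overlap.

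Of the 14 aminoacyl-tRNA synthetases and tRNA exporter on the list 13 were above 0, with a median of 0.22, or 0.12 with the trend removed. IARS1, WARS1 and VARS1, which charge tRNA with isoleucine, tryptophan and valine, had log2 fold changes of 0.44 ± 0.21, 0.33 ± 0.16 and 0.36 ± 0.19 (SE), with edgeR adjusted p of 0.675, 0.686 and 0.692. Only WARS1 of these 3 had groups without overlap, at 251, 301 and 291 CPM in SI-labelled libraries, against 224, 227 and 221 CPM in SINC-labelled libraries.

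The last list, of other ATF4 and CHOP targets, had 19 of 30 above 0 and a median of 0.05. TNFRSF10B, the death receptor DR5 and a target of CHOP, had 181, 145 and 174 CPM in SI-labelled libraries, against 129, 133 and 122 CPM in SINC-labelled libraries. It was thus higher in SI-labelled libraries without overlap, as were 7.36% of all rows (log2 fold change 0.38 ± 0.17 SE, edgeR adjusted p = 0.653, and 0.18 with the trend removed). Any tie to the level of DDIT3 was not tested. TRIB1, a pseudokinase of the TRIB3 family, was at 6.49 ± 1.09 CPM in SI-labelled libraries and 4.10 ± 0.384 CPM in SINC-labelled libraries (SD, n = 3 each; 0.66 ± 0.29 SE, adjusted p = 0.653). RIT1, a small GTPase, was at 30.8 ± 2.56 CPM in SI-labelled libraries and 40.0 ± 5.54 CPM in SINC-labelled libraries (SD, n = 3 each; -0.37 ± 0.19 SE, adjusted p = 0.686).

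**Figure D4:**
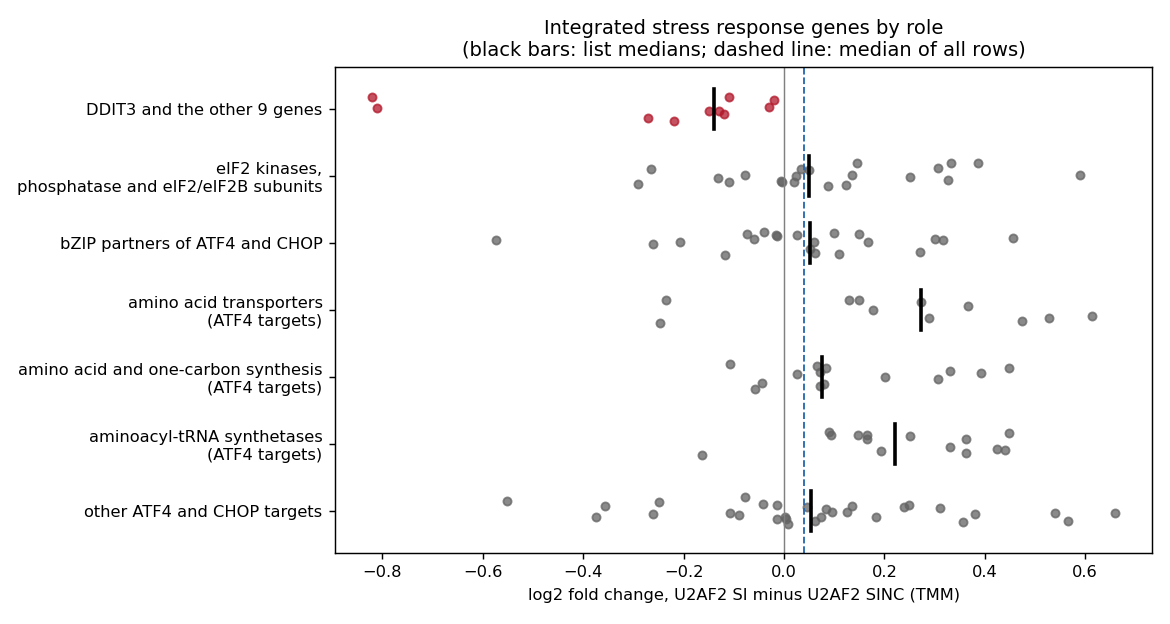
Log2 fold change of every measured gene, SI-labelled libraries minus SINC-labelled libraries with TMM scaling, in the 10 genes (top row) and in 6 lists of the same pathway; points are genes, black bars list medians and the dashed line the median of all rows, 0.04. DDIT3 and NUPR1 lie apart at the far left, and the medians of the transporters and tRNA synthetases, 0.27 and 0.22, lie furthest right.

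Genes whose pattern over the 6 libraries was most like that of DDIT3 were sought among 9033 named rows with a mean of at least 5 CPM, by the root mean square difference of log2 deviations from the row mean. The 5 nearest were AAMDC, ATP5IF1, STX8, FAM162A and MDP1, at 0.0854 to 0.135. Their longest coding transcripts have 693, 1855, 1246, 3052 and 730 nt, in that order, against 1067 nt for DDIT3. The search left the length and GC trend in. Rows chosen for the DDIT3 pattern are lower in SI-labelled libraries by that choice. ATP5IF1, the inhibitor of mitochondrial ATP synthase, had 95.0 ± 14.3 CPM in SI-labelled libraries and 154 ± 13.6 CPM in SINC-labelled libraries. STX8, a SNARE protein of endosomes, had 17.0 ± 1.32 CPM in SI-labelled libraries and 27.5 ± 3.51 CPM in SINC-labelled libraries (SD, n = 3 each). None of the other 9 genes was among the 5. The nearest of the 9 was ATF4 at 0.296, with 566 rows nearer to DDIT3, and NUPR1 followed at 0.325.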

How the data were processed

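The whole-number counts per gene or assembled locus deposited by the authors were used as raw counts. The submitters' processing notes name CASAVA and StringTie, with no version or role. The aligner, counter, genome build and annotation were not given in the sources used here. Sample descriptions tied every column to a library. The lowest row mean was 31.0 counts, and genes under it were not analysed here.

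The 10 genes and the lists were chosen with earlier results of these data known. The test was edgeR 4.0.16 in R 4.3.3 (TMM, filterByExpr, glmQLFit, glmQLFTest) on all 6 libraries and all 11957 rows with group as the only term, and Benjamini-Hochberg adjustment at 0.05. It was tested on simulated data. Log2 deviations used a prior count of 2. CPM are scaled by TMM-adjusted library size. Depth gave 415 to 20876 counts per gene and library for the 10 genes. The biological coefficient of variation was 27%. Within groups, libraries differed by a chi-square of 55.97 to 170.1 per degree of freedom, so none repeats another.

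Transcript lengths and GC content came from the longest coding transcript in GENCODE 29 (94.7% of rows), and the trend was removed by loess (span 0.3) within each library. Alternatives were RLE, upper-quartile and library-size scaling, no filter, a minimum mean of 5 CPM, a replicate block, each library left out, DESeq2 1.42.0, limma-voom (limma 3.58.1) and the length and GC trend. The text names all 10 genes, the 3 genes of smallest p in each list, and the 5 rows nearest to DDIT3; MARS1 and MBD6 were added for their overlap with DDIT3.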

Additional observations from a re-analysis of the deposited data

How the results depend on the processing

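In 16 alternatives DDIT3, NUPR1, ATF4 and PPP1R15A stayed below 0, and 0 of the 10 genes and 0 of the 110 list rows were called in any, though DESeq2 gave an adjusted p to just 3 of the 10 and 22 of the 110. DDIT3 stood at -0.63 with library size alone and -0.53 with the length and GC trend removed, also where the short NUPR1 transcript was used. Values of the 10 genes moved by less than the spread between replicates in 153 of 160 cases. The other 7 include DDIT3 with library size alone and with the length and GC trend removed, with either NUPR1 transcript. Leaving out the filter kept the same 11957 rows and so could move nothing. The number of rows called over the whole table was 1. It was 0 with upper-quartile scaling, library size alone, a minimum mean of 5 CPM, or the length and GC trend removed (with either NUPR1 transcript), 61 with DESeq2 (1062 rows given an adjusted p), and 0 to 2 with a library left out. The cause was not tested.

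Same-numbered libraries did not deviate together (correlations of -0.09, 0.25 and -0.31 for replicates 1, 2 and 3), so the numbers were not taken to pair them. With the replicate number as a block 2 rows were called, 0 of the 10 genes among them. Differences of the size seen for most of the 10 genes, under 0.3 on the log2 scale, were at most 1.5 standard errors.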
